A study of Mus musculus with 24 samples.

Results

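A set of 8 genes with known roles in pluripotency were followed through sorted mouse spermatogonia: Pou5f1, Utf1, Nr5a2, Klf4, Lin28a, Lin28b, Trim71 and Sall4. They were chosen by gene symbol, and all 8 were found in both expression tables, which list 23177 genes (Zbtb16 set) and 21688 genes (Sox3 set). Pou5f1 (OCT4) and Klf4 encode transcription factors used to reprogramme somatic cells, Nr5a2 encodes an orphan nuclear receptor that binds the Pou5f1 promoter in embryonic cells, and Utf1 encodes a chromatin-associated factor of embryonic stem cells and early spermatogonia. LIN28A and LIN28B are RNA-binding proteins that block maturation of the let-7 microRNAs, which in turn repress the Lin28 mRNAs and Trim71, a TRIM-NHL protein. SALL4 is a zinc-finger factor that recruits the NuRD complex, and in the testis it marks spermatogonia together with LIN28A.

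RNA was sequenced from spermatogonia of mice at postnatal day 7 (P7) on a C57BL/6J background, sorted on magnetic beads into a THY1+ fraction (undifferentiated spermatogonia, uSPG) and a KIT+ fraction (differentiating spermatogonia, dSPG). In the Zbtb16 set, null mice homozygous for the luxoid allele of Zbtb16 (PLZF) in every cell of the body were compared with WT controls. For RNA sequencing the methods name WT littermates, while their section on the mice names WT and heterozygous littermates for all experiments. In the Sox3 set, mice carrying a floxed Sox3 and a Ddx4-Cre, which acts in germ cells (cKO), were compared with WT littermates. Each combination of genotype and fraction had 3 libraries, each from the pooled testes of 3 mice, so that there were 24 libraries in 8 groups; p-values measure the spread between these pools. Values are FPKM, read fragments scaled to transcript length and library size, so levels can be set side by side between genes.

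Libraries held an estimated 25.95 to 35.19 M reads in the Zbtb16 set and 11.02 to 31.89 M in the Sox3 set, where replicates 2 and 3 were the shallower ones. The targeted genes followed the genotype labels: Zbtb16 was 42.0 to 58.7 FPKM in WT THY1+ and 15.6 to 18.2 in null THY1+ libraries, and Sox3 was at most 0.082 FPKM in the cKO libraries against at least 6.28 in their WT libraries. The sorting markers followed the fraction labels except in the Sox3 WT libraries. Those labelled THY1+ had Thy1 at 0.213 to 0.254 and Kit at 45.6 to 80.1 FPKM, and those labelled KIT+ had Thy1 at 3.59 to 4.06 and Kit at 13.0 to 18.8. These libraries were not regrouped and are called "labelled THY1+" and "labelled KIT+". The Sox3 genotype effect is therefore given first as the mean over both fractions, which is the same if both WT groups are exchanged. In bulk samples, fewer cells of a type and less RNA per cell cannot be told apart.

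Other cells were present in the fractions. The summed FPKM of 7 measured macrophage markers was 770 to 867 in Zbtb16 WT THY1+ and 5.83 to 7.70 in WT KIT+ libraries, while 6 Leydig cell markers summed to 83.1 to 119 and 1210 to 2270. Germ cell markers (6 genes, Ddx4 among them) summed to 988 to 1210 in WT THY1+ and 979 to 1300 in WT KIT+ libraries. Markers of undifferentiated spermatogonia (10 genes) summed to 109 to 129 in WT THY1+ and 13.9 to 30.6 in WT KIT+ libraries, and those of differentiating spermatogonia (6 genes, Kit among them) to 169 to 199 and 313 to 322. T cell markers reached at most 22.1 and Sertoli cell markers at most 42.6 in any group, endothelial markers at most 49.0, and peritubular and stromal markers 120 to 639; no listed marker was at 0 throughout a group.

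The LIN28 branch of the set is joined by let-7. The mature let-7a sequence (RefSeq, GRCm38.p6) is shown with its seed, bases 2 to 8, in capitals.
mmu-let-7a-5p: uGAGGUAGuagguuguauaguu
The 7-letter complement of this seed, CTACCTC, was searched for on the sense strand in the longest annotated 3′ UTR of each gene (GENCODE M21, GRCm38). Lin28a held 2 matches, Lin28b 4, Trim71 4 and Sall4 1, and Pou5f1, Utf1, Nr5a2 and Klf4 held none. One match from each of the let-7 branch genes and Sall4 is shown with the seed complement in capitals, all on the minus strand: Lin28a at chr4:134005189-134005211, Lin28b at chr10:45381022-45381044, Trim71 at chr9:114512472-114512494 and Sall4 at chr2:168748940-168748962.
Lin28a: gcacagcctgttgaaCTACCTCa
Lin28b: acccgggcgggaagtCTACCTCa
Trim71: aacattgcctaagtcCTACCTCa
Sall4: agggctttaatttatCTACCTCa
Of 21020 genes with an annotated 3′ UTR, 9.02% held the 7 letters at least once, and of the 3901 with a 3′ UTR of 2500 bases or more, 21.9% did. The 3′ UTRs of Lin28a, Lin28b and Trim71 are 2775, 4445 and 5512 bases long. The matches describe sequence only, and let-7 itself was not measured in these libraries.

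NR5A receptors such as NR5A2 bind a core motif that was searched for in the promoters. The 250 bases before the start of Pou5f1 (chr17:35505782-35506031, plus strand) and of Lin28a (chr4:134018817-134019066, minus strand) are shown from RefSeq (GRCm38.p6), because these were the windows among the members with the NR5A core TCAAGG. Capitals mark that core and the GC box GGGCGG, each searched on both strands.
Pou5f1: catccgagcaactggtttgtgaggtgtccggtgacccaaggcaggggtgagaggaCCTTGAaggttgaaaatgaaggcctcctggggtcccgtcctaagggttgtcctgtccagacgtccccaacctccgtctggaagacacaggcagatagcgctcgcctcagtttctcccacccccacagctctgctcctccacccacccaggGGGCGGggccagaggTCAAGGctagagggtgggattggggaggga
Lin28a: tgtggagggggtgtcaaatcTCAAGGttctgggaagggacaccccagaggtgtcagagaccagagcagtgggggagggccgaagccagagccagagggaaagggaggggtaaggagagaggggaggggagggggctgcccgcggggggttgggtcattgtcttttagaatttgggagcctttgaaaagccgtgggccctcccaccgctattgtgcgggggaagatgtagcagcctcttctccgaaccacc
The Pou5f1 window held the core 2 times, starting 195 bases (minus strand) and 30 bases (plus strand) before the start site, and a GC box 45 bases before it; none of these matches overlap. The Lin28a window held the core once, 230 bases before the start. Distances are counted from the end of each window. The gene spans given further below come from another annotation (GENCODE M21), in which both genes start inside these windows. Among 32817 promoter windows of 250 bases, 12.5% held the NR5A core and 32.7% the GC box. A second Pou5f1 window and the windows of Utf1, Nr5a2 (2 of them), Klf4, Lin28b and Trim71 held no NR5A core, and GC boxes were found in those of Utf1, Klf4 and Trim71. Sall4 had no entry. The octamer ATGCAAAT and the SOX core AACAAT were also searched for, and 1.6% and 9.42% of all windows held them. No member window held the octamer, and only the second Pou5f1 window held the SOX core.

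The step from THY1+ to KIT+ was compared first in WT mice of the Zbtb16 set, where it asks how the genes differ between undifferentiated and differentiating spermatogonia. Of the 8 genes, 6 fell and 1 rose past the thresholds used throughout, a Benjamini-Hochberg adjusted p up to 0.05 (limma, 22374 genes) together with 1.5-fold, whereas 21.2% of all genes tested were called (7.21% higher, 14% lower). Pou5f1 and Nr5a2 fell most, Lin28b was the gene that rose, and Klf4 did not pass the test.

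**Figure D1:**
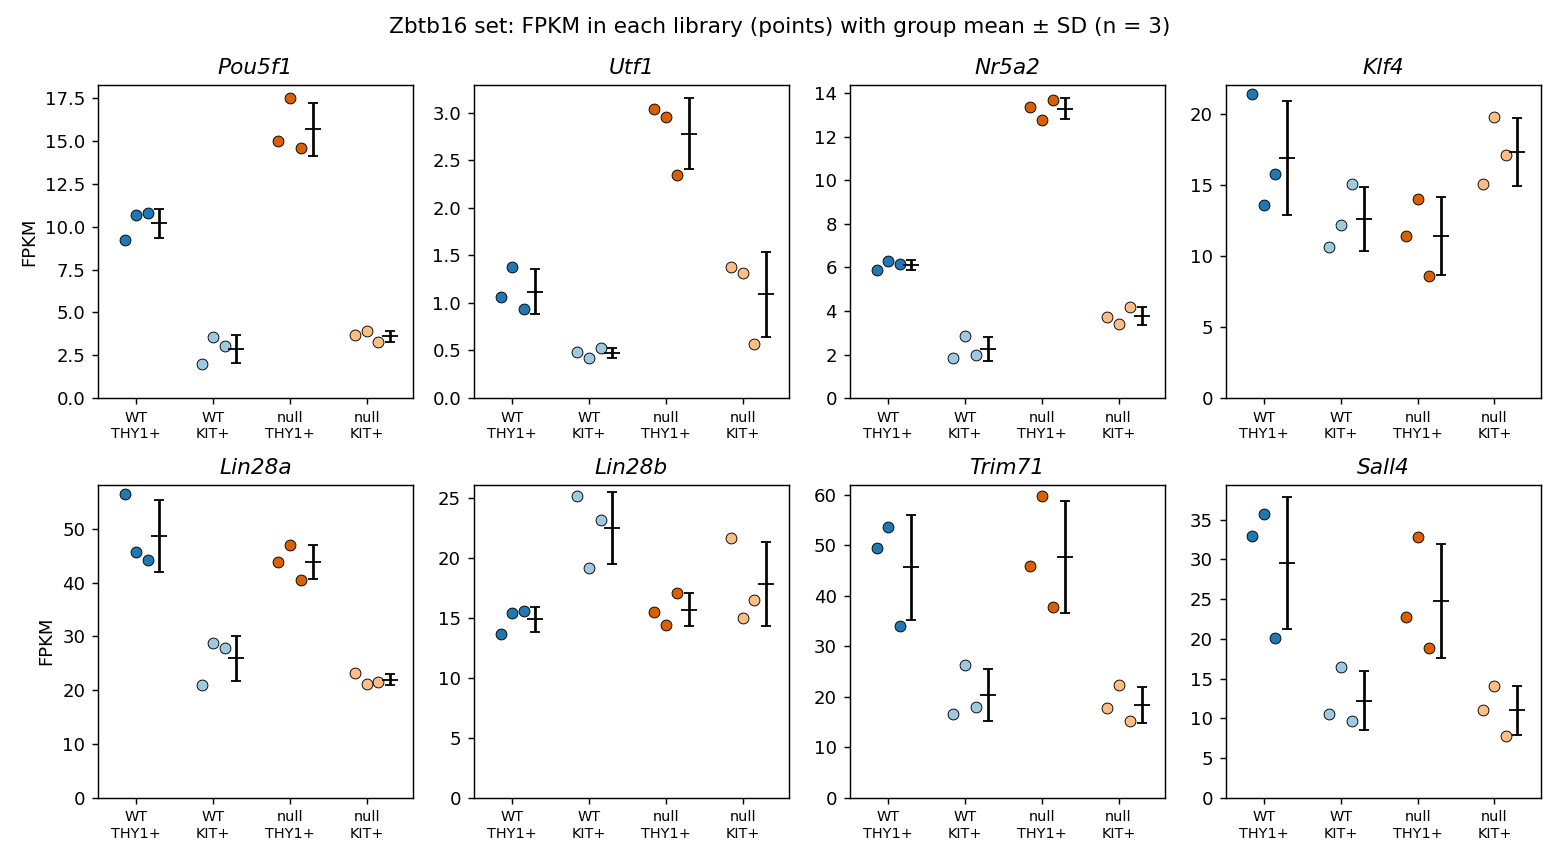
FPKM of the 8 genes in each of the 12 libraries of the Zbtb16 set (y axis, from 0), by genotype and fraction (x axis); points are libraries and bars are the mean ± SD of 3. In WT mice, Pou5f1 lies between 9.25 and 10.8 in THY1+ and between 1.97 and 3.56 in KIT+ libraries, and Lin28b is the gene that is higher in KIT+.

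Pou5f1 stood at 9.25, 10.7 and 10.8 FPKM in the 3 WT THY1+ libraries and at 1.97, 3.56 and 3.02 in the WT KIT+ libraries. The groups did not overlap, and the level fell 3.59-fold (log2 change −1.84 ± 0.18 SE, adjusted p = 2.76e-05). Nr5a2 was 5.89, 6.32 and 6.15 FPKM in WT THY1+ and 1.86, 2.87 and 2.0 in WT KIT+, a 2.70-fold fall without overlap (log2 change −1.43 ± 0.15, adjusted p = 4.31e-05). Utf1 was the lowest of the 8 genes, at 1.06, 1.38 and 0.936 FPKM in WT THY1+ and 0.486, 0.417 and 0.524 in WT KIT+ libraries. It fell by 1.08 ± 0.28 on the log2 scale (adjusted p = 0.014), from an estimated 17 to 105 reads per library over the whole set, the fewest of the 8 genes. The call held in 11 of 13 alternative fits, and a pseudocount of 1 brought the log2 change to −0.52.

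Lin28a and Lin28b, the paralogous let-7 blockers, went opposite ways. Lin28a was 56.4, 45.6 and 44.1 FPKM in WT THY1+ and 21.0, 28.7 and 27.9 in WT KIT+ libraries, a fall of 1.89-fold with no overlap (log2 change −0.92 ± 0.13, adjusted p = 0.000381). Lin28b was 13.7, 15.4 and 15.6 FPKM in WT THY1+ and 25.2, 19.2 and 23.2 in WT KIT+ libraries. It rose 1.5-fold (log2 change 0.59 ± 0.14, adjusted p = 0.01), which lies at the fold threshold: leaving out WT THY1+ replicate 1, WT KIT+ replicate 1 or WT KIT+ replicate 3 gave 0.53, 0.50 and 0.56 and ended the call. Counting other settings too, the call held in 8 of 13 alternative fits. The ratio of Lin28a to Lin28b FPKM was 4.12, 2.97 and 2.83 in the WT THY1+ libraries and 0.835, 1.49 and 1.2 in the WT KIT+ libraries. The pair thus went from an excess of Lin28a in every THY1+ library to levels within 1.5-fold of each other in KIT+.

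**Figure D2:**
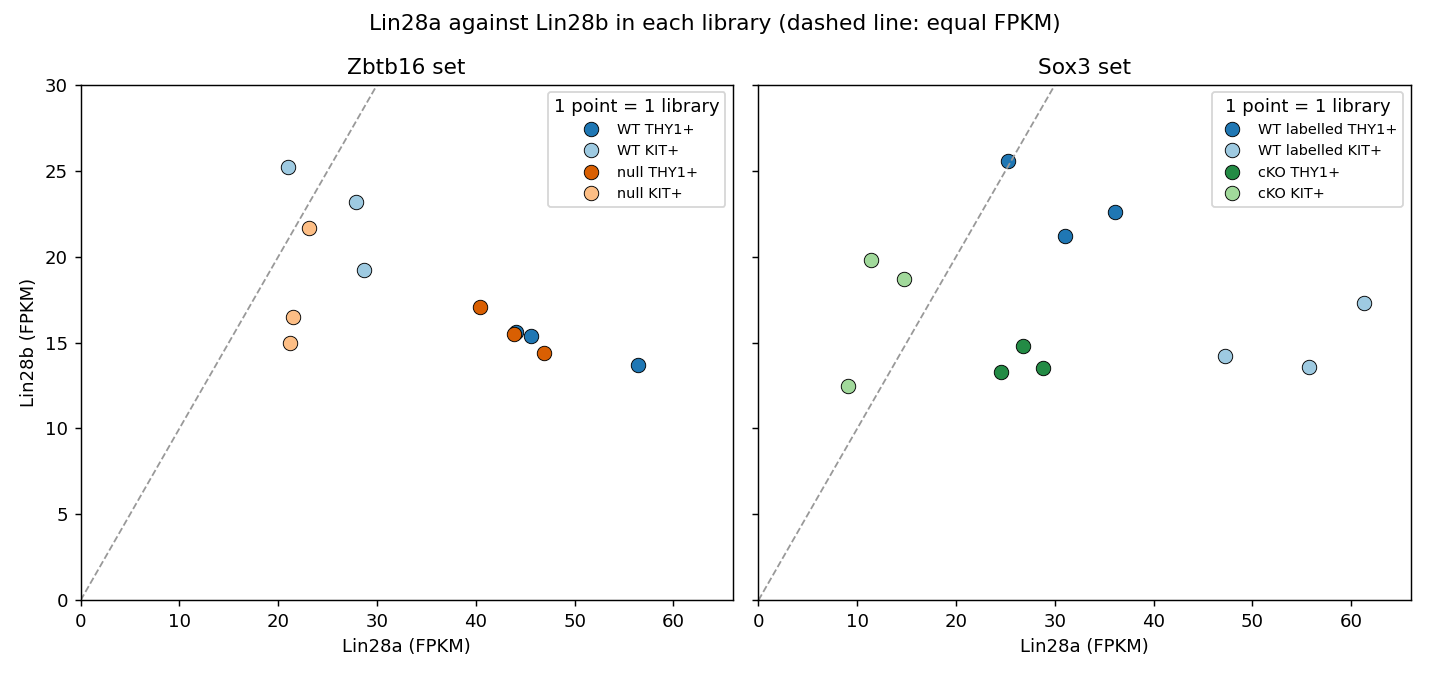
Lin28a (x axis, FPKM) against Lin28b (y axis, FPKM) in each library of the Zbtb16 set (left) and Sox3 set (right); 1 point is 1 library, colours are groups and the dashed line marks equal FPKM. The THY1+ libraries of the Zbtb16 set lie far below the line, with ratios of 2.36 to 4.12, and in the Sox3 set the 3 cKO KIT+ libraries (0.573 to 0.789) and 1 WT library labelled THY1+ (0.985) lie above it.

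Trim71 and Sall4 fell together. Trim71 was 49.5, 53.5 and 33.9 FPKM in WT THY1+ and 16.6, 26.2 and 18.0 in WT KIT+ libraries (log2 change −1.17 ± 0.23, adjusted p = 0.0034). Sall4 was 33.0, 35.7 and 20.1 FPKM in WT THY1+ and 10.5, 16.5 and 9.66 in WT KIT+ libraries (log2 change −1.27 ± 0.30, adjusted p = 0.00793). Neither gene's groups overlapped, and both had their lowest THY1+ value in the same library. Klf4 was 21.4, 13.6 and 15.8 FPKM in WT THY1+ and 10.6, 12.2 and 15.1 in WT KIT+ libraries, groups that overlapped (log2 change −0.41, 95% interval −0.87 to 0.05, adjusted p = 0.17). Levels per length in WT THY1+ thus ran from Lin28a (48.7 ± 6.71 FPKM, SD) and Trim71 (45.6 ± 10.4) through Sall4 (29.6 ± 8.31), Klf4 (16.9 ± 4.0), Lin28b (14.9 ± 1.04), Pou5f1 (10.2 ± 0.847) and Nr5a2 (6.12 ± 0.216) to Utf1 (1.12 ± 0.232). In this order, Lin28a and Trim71, and Klf4 and Lin28b, did not differ beyond their spread; the means of Trim71 and Sall4 also lay within their summed SDs, but Trim71 was the higher of them in each of the 3 libraries. Comparisons within a set share libraries with each other, so they are not independent.

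The same step in the Zbtb16 null fractions called 7 of the 8 genes, 6 lower and 1 higher, against 29.2% of all genes (13.2% higher, 16% lower). The 6 that fell were those that fell in WT, with log2 changes from −0.99 (Lin28a) to −2.09 (Pou5f1). The gene called higher was Klf4, at 11.4, 14.0 and 8.61 FPKM in null THY1+ and 15.1, 19.8 and 17.1 in null KIT+ libraries (log2 change 0.62 ± 0.21, adjusted p = 0.0342), a call that held in 8 of 13 alternative fits. Without null THY1+ replicate 1 or 3, or null KIT+ replicate 2 or 3, the value was 0.64, 0.44, 0.52 and 0.63 and the call was lost. Lin28b was 15.5, 14.4 and 17.1 FPKM in null THY1+ and 21.7, 15 and 16.5 in null KIT+ libraries, with a log2 change of 0.17 (95% interval −0.15 to 0.48, adjusted p = 0.394). Markers of other cells moved with this step: germ cell markers summed to 1160 to 1530 in null THY1+ and 737 to 1140 in null KIT+ libraries (6 of 6 with a negative log2 change, 3 called lower, median −0.57), Leydig cell markers to 49.8 to 79.6 and 2050 to 3120, and macrophage markers to 356 to 675 and 5.78 to 14.6. Their part in the result was not tested. With germ marker centring, 4 genes were called, against 41.6% of all genes, whose median log2 change moved from −0.051 to 0.516. Lin28a (−0.43, adjusted p = 0.131), Sall4, Trim71 and Utf1 were not called, and Lin28b was (0.73, adjusted p = 0.000659).

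Loss of ZBTB16 was then compared within each fraction. In THY1+ cells, Nr5a2 and Utf1 were 2.15-fold and 2.37-fold higher in the null than in WT and no member was called lower, so that 2 of the 8 genes were called against 3.98% of all genes (2.71% higher, 1.26% lower). Nr5a2 was 13.4, 12.8 and 13.7 FPKM in the null THY1+ libraries, all above the WT maximum of 6.32 (2.15-fold, log2 change 1.11 ± 0.15, adjusted p = 0.00256). Utf1 was 3.04, 2.96 and 2.35 FPKM, all above the WT maximum of 1.38 (2.37-fold, log2 change 1.24 ± 0.28, adjusted p = 0.0289). The Utf1 call was lost when any 1 of the 6 libraries was left out, although its log2 change stayed between 1.13 and 1.39; the Nr5a2 call held in each of those fits. Pou5f1 was 15, 17.5 and 14.6 FPKM, also with no overlap, but did not pass the test (log2 change 0.61, 95% interval 0.21 to 1.01, adjusted p = 0.0791). Pou5f1 passed it when the replicate number, which was taken to pair these groups, was a block in the fit (adjusted p = 0.0209, with 8.85% of all genes called), and when these 6 libraries were fitted alone (adjusted p = 0.0392).

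The null and WT THY1+ fractions also differed in their markers of other cells. Macrophage markers summed to 356 to 675 in the null against 770 to 867 in WT, Leydig cell markers to 49.8 to 79.6 against 83.1 to 119, and peritubular and stromal markers to 217 to 319 against 361 to 488. Germ cell markers summed to 1160 to 1530 in the null against 988 to 1210 in WT, and markers of undifferentiated spermatogonia to 115 to 155 against 109 to 129. Of these 10 markers of undifferentiated spermatogonia, however, 6 had a negative and 4 a positive log2 change. Called lower were 3 of them, Shisa6 (−1.19), Eomes (−1.15) and Pax7 (−0.96), and 0 were called higher (1.26% and 2.71% of all genes). The part of all these markers in the result was not tested. When each library was instead centred on the 6 germ cell markers, a setting chosen after seeing the data that moved the median of all genes from −0.027 to −0.422, Nr5a2 had a log2 change of 0.71 (adjusted p = 0.08) and Utf1 of 0.85 (adjusted p = 0.105), and neither was called. These markers include Sycp3, which the paper reports as attenuated by ZBTB16. All 6 had positive log2 changes here (median 0.32), and none was called. Centring on them can therefore remove part of a genotype effect.

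The other 5 genes were closer to WT in null THY1+ cells. Lin28a was 43.9, 46.9 and 40.4 FPKM (log2 change −0.15, 95% interval −0.44 to 0.14) and Lin28b had a log2 change of 0.07 (−0.24 to 0.39). Trim71, at 45.8, 59.7 and 37.7 FPKM, had a log2 change of 0.07 (−0.45 to 0.58). Sall4, at 22.8, 32.8 and 18.9 FPKM, had a log2 change of −0.25 (−0.90 to 0.40). These intervals are wide, and a p that misses the threshold does not show equal levels. Klf4 had a log2 change of −0.57 (−1.03 to −0.11, adjusted p = 0.132), with overlapping groups.

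In KIT+ cells, limma called none of the 8 genes between null and WT, against 0.259% of all genes (0.192% higher, 0.067% lower). An unadjusted p under 0.05 was found for 3 of the 8 genes and for 3863 of all 22374 genes. Germ cell markers summed to 737 to 1140 in null against 979 to 1300 in WT KIT+ libraries (6 of 6 with a negative log2 change, median −0.20). Leydig cell markers summed to 2050 to 3120 against 1210 to 2270 (6 of 6 positive, median 0.60). None of these markers was called, and their part in the result was not tested. With the replicate block, which was also taken to pair these groups, Nr5a2 was called (adjusted p = 0.0365, with 2.29% of all genes called). Nr5a2 was 3.71, 3.39 and 4.20 FPKM in the null and at most 2.87 in WT KIT+ (log2 change 0.74, 95% interval 0.41 to 1.07, adjusted p = 0.10). Utf1 was 1.38, 1.31 and 0.573 FPKM in the null and at most 0.524 in WT (log2 change 0.96, 0.35 to 1.58, adjusted p = 0.171). Leaving out WT KIT+ replicate 2 brought Nr5a2 to 0.93 (adjusted p = 0.0196), and leaving out null KIT+ replicate 3 brought Utf1 to 1.33 (adjusted p = 0.0494), so that each was then called. The test of the difference itself, the interaction of genotype and fraction, called none of the 8 genes, against 0.0313% of all genes (0.00447% higher, 0.0268% lower). An unadjusted p under 0.05 was found for 1 of the 8 genes and for 5014 of all 22374. That gene was Klf4, whose log2 change was −0.57 in THY1+ and 0.46 in KIT+ (interaction 1.03, 95% interval 0.38 to 1.68, adjusted p = 0.104). For Nr5a2 and Utf1 the interaction was −0.36 (−0.83 to 0.11) and −0.28 (−1.15 to 0.59), so a difference between fractions was not shown.

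**Figure D3:**
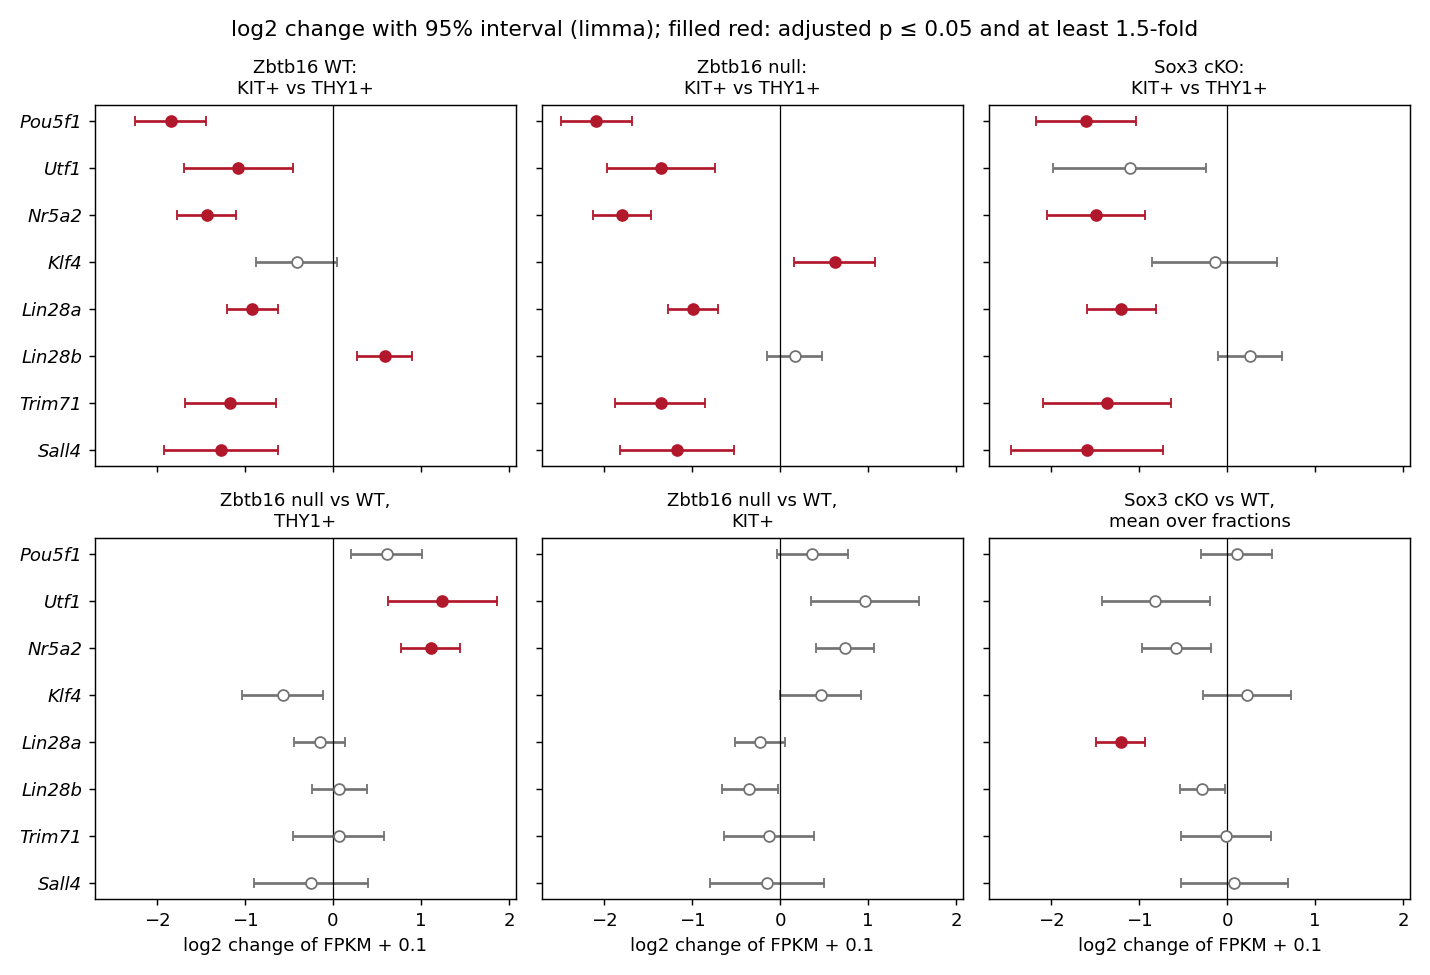
log2 change of FPKM + 0.1 (x axis) of the 8 genes (y axis) with the 95% interval of limma, for the step from THY1+ to KIT+ in 3 genotypes (top) and the genotype effects (bottom); filled red points passed the adjusted p and fold thresholds. Pou5f1, Utf1, Nr5a2, Lin28a, Trim71 and Sall4 lie left of 0 in all 3 top panels, Nr5a2 and Utf1 are the filled points of the Zbtb16 null THY1+ panel, and Lin28a is the filled point of the Sox3 panel.

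In the Sox3 set, Lin28a changed in the mean over both fractions. As labelled, it was not called in THY1+ (log2 change −0.19, adjusted p = 0.42) and was called lower in KIT+ (−2.23, adjusted p = 3.27e-06). Averaged over both fractions, it fell 2.32-fold in the cKO (log2 change −1.21 ± 0.13, adjusted p = 0.000854), and it was the 1 gene of 8 called, against 10.3% of all genes (7.49% higher, 2.83% lower). Lin28a was 24.5, 28.8 and 26.8 FPKM in cKO THY1+ and 9.10, 11.4 and 14.7 in cKO KIT+ libraries. In WT it was 31.0, 25.3 and 36.1 FPKM in the libraries labelled THY1+ and 47.2, 55.7 and 61.3 in those labelled KIT+. The call held in 19 of 19 alternative fits, with log2 changes from −1.30 to −0.74. The smallest change came with germ marker centring, which moved the median of all genes to 0.5 (adjusted p of Lin28a 0.000459), and the highest adjusted p, 0.0366, with replicates 2 and 3 alone (log2 change −1.14). All 6 germ cell markers had negative log2 changes in the mean over both fractions, and Sycp3 (−0.61) and Tex101 (−0.69) were called lower. Centring on them can therefore remove part of a genotype effect.

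**Figure D4:**
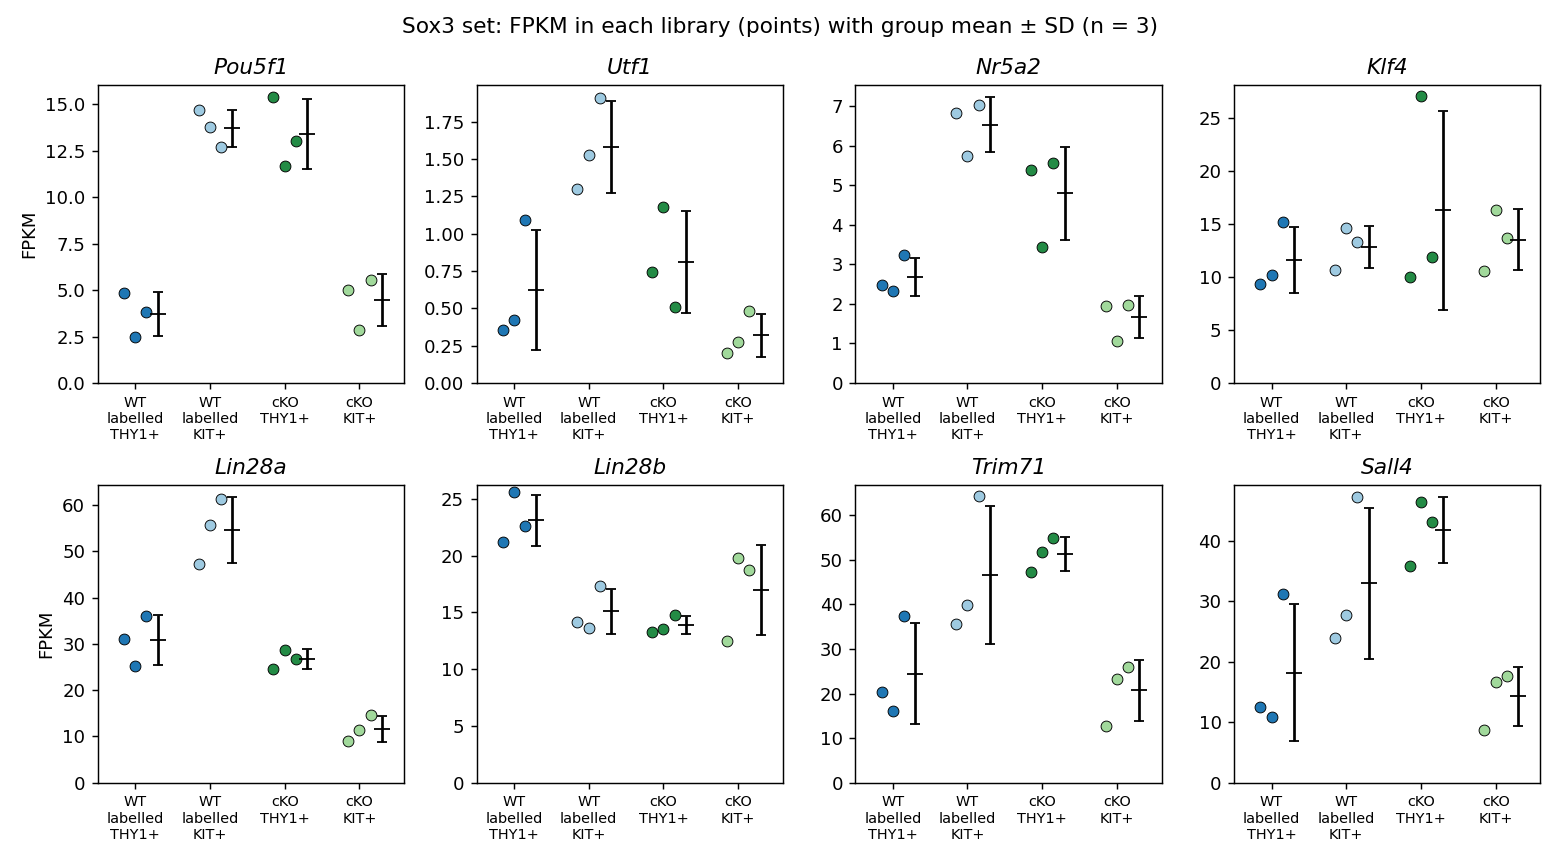
FPKM of the 8 genes in each of the 12 libraries of the Sox3 set (y axis, from 0), by group as labelled (x axis); points are libraries and bars are the mean ± SD of 3. Lin28a is at most 28.8 in the cKO THY1+ and 14.7 in the cKO KIT+ libraries, and Pou5f1 lies at 11.7 to 15.4 in cKO THY1+ and 12.7 to 14.7 in WT labelled KIT+.

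The groups with like levels of Thy1 and Kit were also set side by side. Lin28a in cKO THY1+ lay wholly below WT labelled KIT+ (log2 change −1.03, 95% interval −1.42 to −0.64), but did not pass the test over all genes (adjusted p = 0.0854), where limma called none of the 8 genes and 0.0707% of all genes (0.00471% higher, 0.066% lower). An unadjusted p under 0.05 was found for 2 of the 8 genes and for 2793 of all 21212. With the replicate block, which was taken to pair these groups, Lin28a was called (adjusted p = 0.031, with 0.137% of all genes called). In cKO KIT+ against WT labelled THY1+, Lin28a fell 2.63-fold (log2 change −1.40 ± 0.18, adjusted p = 0.00177) and was the 1 gene called (Lin28b was also called without cKO KIT+ replicate 2), against 17% of all genes (12.4% higher, 4.57% lower). Germ cell markers summed to 1030 to 1200 in cKO THY1+ and 1280 to 1460 in WT labelled KIT+, and to 770 to 1060 in cKO KIT+ and 1360 to 1430 in WT labelled THY1+. Leydig cell markers summed to 2490 to 4940 in cKO KIT+ and 1240 to 2000 in WT labelled THY1+. The part of these other cells in the result was not tested.

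The ratio of Lin28a to Lin28b followed. It was 1.84, 2.13 and 1.81 in cKO THY1+ against 3.32, 4.09 and 3.54 in WT labelled KIT+, and 0.730, 0.573 and 0.789 in cKO KIT+ against 1.46, 0.985 and 1.60 in WT labelled THY1+, with no overlap in either pair. Lin28b itself was 13.3, 13.5 and 14.8 FPKM in cKO THY1+ and 12.5, 19.8 and 18.7 in cKO KIT+ libraries. In WT it was 21.2, 25.6 and 22.6 in those labelled THY1+ and 14.2, 13.6 and 17.3 in those labelled KIT+. Its mean change over both fractions was −0.29 (95% interval −0.54 to −0.03, adjusted p = 0.0911).

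The 2 genes that were higher in the Zbtb16 null had negative estimates in the Sox3 cKO averaged over both fractions. As labelled THY1+ they did not: Nr5a2 had a log2 change of 0.80 (adjusted p = 0.0284) and Utf1 of 0.41. As labelled KIT+ both were called lower, Nr5a2 at −1.96 (adjusted p = 0.000146) and Utf1 at −2.04 (adjusted p = 0.00229). In the mean over both fractions, Nr5a2 had an adjusted p of 0.0373 and a log2 change of −0.58 ± 0.18, a 1.49-fold difference just under the fold threshold, and it was called in 5 of 19 alternative fits. Its levels were 5.38, 3.45 and 5.57 FPKM in cKO THY1+ and 6.83, 5.75 and 7.05 in WT labelled KIT+, and 1.96, 1.06 and 1.98 in cKO KIT+ and 2.49, 2.34 and 3.24 in WT labelled THY1+. Neither of these pairs overlapped. Utf1 was 0.746, 1.18 and 0.510 FPKM in cKO THY1+ and 1.30, 1.53 and 1.91 in WT labelled KIT+, and at most 1.09 in the other groups (mean log2 change −0.82, 95% interval −1.43 to −0.20, adjusted p = 0.0545). Its estimated reads were 4 to 49 per library, so that counting error is large. In the mean over both fractions, Utf1 was also called without WT labelled THY1+ replicate 1, cKO THY1+ replicate 2 or cKO KIT+ replicate 3, and Nr5a2 without cKO THY1+ replicate 1 or 3 or cKO KIT+ replicate 1 or 3, which made 2 genes called, or 3 without cKO KIT+ replicate 3.

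Pou5f1, Sall4, Trim71 and Klf4 had mean changes over both fractions of 0.11 (95% interval −0.30 to 0.51), 0.08 (−0.53 to 0.69), −0.02 (−0.53 to 0.50) and 0.22 (−0.28 to 0.73). Pou5f1 was 15.4, 11.7 and 13.0 FPKM in cKO THY1+ and 14.7, 13.8 and 12.7 in WT labelled KIT+, and 4.98, 2.86 and 5.53 in cKO KIT+ and 4.82, 2.49 and 3.80 in WT labelled THY1+. Klf4 stood at 9.95, 27.1 and 11.9 FPKM in cKO THY1+, where replicate 2 stood far above the others, and at 9.37 to 16.3 in the other 9 libraries. Sall4 at 31.2 and Trim71 at 37.3 FPKM in WT labelled THY1+ replicate 3 were far above the 10.9 to 12.5 and 16.0 to 20.3 FPKM of the other libraries of that group, and this library was also the highest of its group for Sox3 (24.4 FPKM), Zbtb16 (28.9) and Kit (80.1).

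Compared strictly as labelled, the cKO differed from WT in 5 of the 8 genes in THY1+ (4 higher, 1 lower, against 29.1% of all genes, 17.8% higher and 11.3% lower) and in 6 in KIT+ (all lower, against 25.1%, 12.4% higher and 12.6% lower). Pou5f1, for example, had a log2 change of 1.86 in the groups labelled THY1+ and −1.65 in those labelled KIT+. The part in this of the WT fraction labels, which the sorting markers go against, was not tested. Within WT, the libraries labelled KIT+ against those labelled THY1+ had 4 genes higher and 1, Lin28b, lower (19.7% of all genes called, 13.1% higher and 6.53% lower), with Pou5f1 at a log2 change of 1.91, opposite to the Zbtb16 WT step. The 5 calls as labelled THY1+ became 2, Pou5f1 and Lin28b, without WT labelled THY1+ replicate 1 or 2 or cKO THY1+ replicate 3, and those within WT became 3 without replicate 2 of either group. Within the cKO, whose markers follow their labels, the step from THY1+ to KIT+ called 5 genes lower and none higher, against 22.7% of all genes (10.5% higher, 12.2% lower). These were Pou5f1 (−1.61), Sall4 (−1.60), Nr5a2 (−1.49), Trim71 (−1.37) and Lin28a (−1.21 on the log2 scale), and Utf1 had −1.11 with an adjusted p of 0.0561.

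Related genes were described by lists. In the core pluripotency network (20 genes listed, 17 tested in the Zbtb16 set), 5 fell and 2 rose from WT THY1+ to KIT+ (14% and 7.21% of all genes), with a median log2 change of −0.24 against −0.03 over all genes. Sox2 (−1.46) and Dppa4 (−1.35), which encodes a chromatin factor of early embryos, fell, and Dppa3 (2.33) and Eras (1.24) rose. Sox2 stayed at or under 0.708 FPKM and Nanog at or under 0.189 in every library of the set, far below Pou5f1. In null against WT THY1+, 3 of the 17 genes tested rose and none fell (2.71% and 1.26% of all genes). These were Dppa3 (2.26), Dppa4 (1.14) and Fbxo15 (0.84), and the list median was 0.20 against −0.03 over all genes. Dppa3 was only 0.187 to 0.372 FPKM in WT THY1+, close to the 0.1 added before taking logs. Dppa4, whose 3 null values were 28.6 to 29.7 FPKM and WT values 11.9 to 15.8, had the highest level of these 3 genes.

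Of 14 genes of the LIN28 and let-7 axis, 6 fell and none rose from WT THY1+ to KIT+ (14% and 7.21% of all genes, median −0.54 against −0.03). The RNA-binding proteins Igf2bp2 (−1.0), Igf2bp1 (−0.89) and Igf2bp3 (−0.84) and the terminal uridylyltransferase Zcchc6 (−0.82), which acts with LIN28A on let-7 precursors, changed most. None was called between null and WT THY1+, where the median was −0.07. In the Sox3 cKO, averaged over fractions, 1 of the 14 fell (Mycn, −0.63) and 1 rose (Ago2, 0.59), beside 2.83% and 7.49% of all genes. Of 14 SALL and NuRD genes, Sall1 (−1.93) and Sall3 (−1.66) fell in WT KIT+, a share of the list close to the 14% of all genes called lower. In null THY1+, Sall1 fell by 1.13 and Sall3 rose by 1.05 on the log2 scale, and in the Sox3 cKO Sall2 rose by 0.94.

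The closest relatives of the members did not all share their pattern. Of 8 relatives, 3 fell and 1 rose in WT KIT+ (14% and 7.21% of all genes). The gene that rose was Nr5a1 (log2 change 2.15), the paralog of Nr5a2 that drives steroidogenic genes, at 13.2 to 38.8 FPKM in WT KIT+ and 3.95 to 6.08 in WT THY1+; Leydig cell markers moved the same way, and their part in it was not tested. Klf6 (−1.77), Klf3 (−1.17) and Pou2f2 (−0.78) fell.

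The genes whose pattern was most like each member's were taken by the lower of the Pearson correlations over the 12 libraries of each table, among 15869 genes. The points share their libraries, fractions and genotypes, so the values are a description. For Pou5f1 these were Gm19553 (0.988), Lincenc1 (0.986) and Nanos2 (0.982). Gm19553 is annotated antisense to Pou5f1 with 317 shared exon bases, and as no source says whether counting used the strand, reads of the pair may not be told apart. For Nr5a2 they were Emb (0.977), Gm26678 (0.976) and Lrriq4 (0.954), and for Lin28a B4galnt4 (0.923) and Katnal2 (0.915). Lin28b stood with Nr6a1 (0.947), Ccdc36 (0.943) and Tc2n (0.938), none of which was among those of another member. Sall4 (Ube4b 0.989, Shroom3 0.984, Atp9a 0.983) and Trim71 (Rcan3 0.982, Epb4.1l4b 0.981, Atp9a 0.981) had Atp9a in common, and correlated with each other at 0.98 and 0.99 in the Zbtb16 and Sox3 sets. Klf4 had the weakest likeness, with Gm11175 (0.818), Jund (0.794) and Map3k6 (0.758). Utf1 was left out, since its mean was under 1 FPKM in the Sox3 set.

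By position, the genes lie on 7 chromosomes of GRCm38. Pou5f1 spans chr17:35506018-35510772, Utf1 chr7:139943789-139945112, Lin28a chr4:134003330-134018841, Lin28b chr10:45376620-45486395, Nr5a2 chr1:136842571-136960448, Sall4 chr2:168748332-168767943, Klf4 chr4:55527143-55532466 and Trim71 chr9:114507133-114564369. Besides Pou5f1, exons of Lin28a (with Gm13061, 234 bases), Sall4 (with Gm14261, 526 bases) and Trim71 (with C130032M10Rik, 135 bases) overlap a gene on the other strand. Values of these 4 genes could include reads of the overlapping genes.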

How the data were processed

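RNA of 24 libraries (8 groups of 3) was analysed. The authors made stranded libraries after ribosomal RNA removal, aligned single reads to mm10 with Novoalign and computed FPKM with USeq; 1 table of such FPKM was deposited per set. The count model of the study was not used, since FPKM values are not counts. Groups come from the labels. Values of each gene were taken as log2(FPKM + 0.1), genes whose mean reached 0.1 FPKM were kept (all 8 members passed), and 4 group means were fitted to the 12 libraries of a table in limma 3.58.1 (R 4.3.3; lmFit, eBayes with trend and robust). Tests were two-sided, with Benjamini-Hochberg adjustment over all genes tested. A call needs both an adjusted p up to 0.05 and a 1.5-fold difference, which the pseudocount makes smaller for genes of low level. The script was tested on simulated data. Read numbers were estimated from the steps of low FPKM values, of which 83.3% to 86.7% per library were whole within 0.1 reads. Replicate numbers were taken to pair 2 groups where the deviations of all 3 same-numbered pairs from their group means correlated over 0.1. This held for null and WT THY1+ (0.133, 0.344 and 0.475), null and WT KIT+ (0.362 to 0.52), both null fractions (0.315 to 0.519) and Sox3 cKO THY1+ and WT labelled KIT+ (0.125 to 0.268). The labels do not say what a number marks, and the pairing of replicate 1 was weak. WT THY1+ replicate 1 also correlated with null THY1+ replicate 2, at 0.121. The replicate term was fitted over all 4 groups of a set, although WT THY1+ replicate 1 correlated at 0.07 with WT KIT+ replicate 1. With null KIT+ replicate 1 it correlated at −0.028. Alternatives were pseudocounts, the low-value filter, median or germ marker centring, a replicate term, fewer libraries and single libraries left out. The members, the gene lists and the named-gene rule (all members, the 3 most like genes of each, of which 1 is not reported here, and at most 4 called genes of a list with the largest change) were chosen with earlier results of these data known. The study named several members from these same libraries, so their calls are not independent evidence.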

Additional observations from a re-analysis of the deposited data

How the results depend on the processing

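Of the 8 genes, the number called changed with other settings, for example as follows. With germ marker centring, chosen after seeing the data, it was 0 in null against WT THY1+ (3.86% of all genes called). It was 5 as labelled KIT+ (48.2% of all genes), with Sall4 and Trim71 lost and Lin28b gained at 0.78 (adjusted p = 0.000537). In the null step from THY1+ to KIT+ it was 4 (41.6% of all genes), with Lin28a, Sall4, Trim71 and Utf1 lost and Lin28b gained. It was 2 in the Sox3 mean over fractions (39.3%) and 3 in cKO KIT+ against WT labelled THY1+ (48.8%). Lin28b also lost its call with this centring in the WT step and as labelled THY1+ (−0.41). The median log2 change of all genes became 0.581 as labelled KIT+, 0.516 in the null step, 0.5 in the Sox3 mean and 0.651 in cKO KIT+ against WT labelled THY1+. Fitting the 6 compared libraries alone gave 3 in null against WT THY1+ (Pou5f1 gained), and Utf1 and Nr5a2 kept their calls there with each setting but germ marker centring and, for Utf1, leaving out 1 library. With a pseudocount of 1, Utf1 (−0.52) and Lin28b lost their calls in the WT step, and Klf4 lost its call in the null step. A pseudocount of 0.01 gave 2 in the Sox3 mean. With replicates 2 and 3 alone the number called was 3 in the cKO step, 3 in the WT labelled step and 2 as labelled THY1+. As labelled KIT+, Sall4 was called in 9 and Trim71 in 10 of 14 alternative fits.

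With a replicate block, 3 genes were called in null against WT THY1+ (Pou5f1 gained), 1 (Nr5a2) in null against WT KIT+ and 1 (Lin28a) in cKO THY1+ against WT labelled KIT+, and no call changed in the null step. In these comparisons the numbers were taken to pair the samples. In the others they were not shown to, and the block gave 2 genes in the Sox3 mean (Utf1 gained) and 2 in cKO KIT+ against WT labelled THY1+ (Nr5a2 gained), and added Utf1 in the cKO step and Sall4 and Trim71 in the WT labelled step. It changed no other call of a member.

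When 1 library was left out, the number called was 1 in null against WT THY1+, 0 to 1 in null against WT KIT+, 6 to 7 in the WT step, 6 to 7 in the null step, 0 in the interaction, 1 to 3 in the Sox3 mean, 5 to 6 in the cKO step, 3 to 7 in the WT labelled step, 2 to 5 as labelled THY1+, 4 to 6 as labelled KIT+, 0 in cKO THY1+ against WT labelled KIT+ and 1 to 2 in cKO KIT+ against WT labelled THY1+.

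Signs turned for values that had not passed the test. With germ marker centring the log2 changes became −0.32 (Lin28b) and −0.33 (Trim71) in null against WT THY1+, 0.07 (Sall4) and 0.10 (Trim71) in KIT+, and 0.37 (Pou5f1), 0.34 (Utf1), 0.54 (Lin28a), 0.20 (Lin28b), 0.26 (Nr5a2) and 0.43 (Trim71) in the interaction. In the Sox3 set they became 0.19 (Lin28b) and 0.46 (Trim71) in the mean, 0.16 (Klf4) in the cKO step, 0.13 (Lin28a) as labelled THY1+, 0.28 (Pou5f1) and 0.21 (Lin28b) in cKO THY1+ against WT labelled KIT+, and 0.16 (Lin28b), 0.39 (Sall4) and 0.41 (Trim71) in cKO KIT+ against WT labelled THY1+. With replicates 2 and 3 alone, Trim71 became 0.04 in the Sox3 mean and 0.01 in cKO KIT+ against WT labelled THY1+.

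Leaving out 1 library gave ranges that reach or cross 0 for Trim71 (−0.13 to 0.22) in null against WT THY1+, for Sall4 (−0.35 to 0.08) and Trim71 (−0.28 to 0.07) in KIT+, and for Utf1 (−0.48 to 0.09), Lin28a (−0.22 to 0), Sall4 (−0.10 to 0.35) and Trim71 (−0.35 to 0.01) in the interaction. In the Sox3 mean they were −0.02 to 0.25 (Pou5f1), −0.06 to 0.32 (Sall4) and −0.15 to 0.16 (Trim71). Klf4 ranged from −0.43 to 0.29 in the cKO step, −0.06 to 0.66 and −0.08 to 0.23 as labelled THY1+ and KIT+, and −0.22 to 0.49 in cKO THY1+ against WT labelled KIT+, where Pou5f1 ranged from −0.15 to 0.05. In cKO KIT+ against WT labelled THY1+, Pou5f1 ranged from 0 to 0.54, Sall4 from −0.52 to 0.23 and Trim71 from −0.48 to 0.13.

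The share of all genes called ranged from 1.32% to 8.85% in null against WT THY1+, 0.00911% to 2.29% in KIT+, 12.9% to 24.1% in the WT step, 18.2% to 41.6% in the null step, 0% to 12.3% in the interaction, 2.82% to 39.3% in the Sox3 mean, 11.7% to 28.3% in the cKO step and 4.66% to 48.8% in cKO KIT+ against WT labelled THY1+. The cause was not tested. Low read numbers limit Utf1 most.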
